A study of Mus musculus with 3 samples.

Results

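The genes described here are the mouse histone genes named for the histone clusters, that is every gene whose symbol begins with Hist1h, Hist2h, Hist3h or Hist4h. By that rule 69 of the 27998 genes counted in the series were members: 6 of the linker histone class H1, and 19 of H2A, 19 of H2B, 12 of H3 and 13 of H4, the core histones. They were measured by droplet single-cell RNA sequencing (10x Genomics, 3' end) in cells of the fetal mouse brain at embryonic stage E18.5 that had been enriched on beads for CD11b, an integrin chain of myeloid cells. The 3 libraries were 1 of genotype Ncr1-cre with saline, 1 of genotype Ncr1-cre with poly(I:C), a synthetic double-stranded RNA, and 1 labelled Gzmb-cko, genotype Ncr1-cre;gzmbf/f, with poly(I:C). All 3 thus carry Ncr1-cre, a Cre driven from a gene of natural killer and related innate lymphoid cells, and none was Gzmb-cko with saline. How many fetuses were pooled, at which dose and day the agents were injected, and if the genotype describes dams or fetuses, the sources used here do not state. Triplets of values below follow the order saline, poly(I:C), Gzmb-cko.

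Histones are the proteins that DNA is wound on. The core classes H2A, H2B, H3 and H4 form the spool of the nucleosome, and H1 binds the DNA between spools. Most of the clustered genes are replication-dependent: they are transcribed while DNA is copied, lack introns, and give mRNAs that end in a conserved stem-loop instead of a poly(A) tail. The stem-loop is bound by the protein that Slbp encodes and the mRNA is degraded when DNA synthesis ends. Some members are also known to give polyadenylated mRNA, chiefly in cells that have left the cycle. The libraries were primed on poly(A), so a value here counts the part of a member's RNA that this priming captured, not all of its mRNA.

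The stem-loop sequences are shown because they divide the members by mRNA end. The pattern searched on the sense strand after the stop codon was GG, any 3 bases, TTTT, any base, A, any 3 bases and CC, and it was present in 42 of the 69 members: 4 of class H1, 11 of H2A, 8 of H2B, 8 of H3 and 11 of H4. Among 21025 transcripts of other genes with a length of 300 to 1200 bases, 43 (0.205%) held it. In 13 members the gene model ended at the stop codon, so the pattern could not be looked for. The transcripts are those of GENCODE M21 on build GRCm38, and capitals mark the run of T in the loop.
Hist1h1e and Hist1h2ap: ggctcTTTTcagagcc
Hist2h2ac: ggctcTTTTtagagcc
Hist1h3c: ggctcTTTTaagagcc
Hist1h4d and Hist4h4: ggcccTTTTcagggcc
Hist1h4i: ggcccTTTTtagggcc
The first form occurred in 24 of the 42 members, across classes H1, H2A, H2B and H3. No match was found in Hist1h2bc, whose model runs 742 bases past the stop codon. The polyadenylation signal AATAAA stood after the stop codon in 18 members, among them Hist1h2bc, Hist3h2a, Hist3h2ba, Hist4h4, Hist1h1c and Hist1h1d.

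Near-identical copies limit what the counts of single members can say, because reads that fit several genes are dropped from the count by Cell Ranger. Of all 100-base stretches of a member's transcripts, over 50% occurred also in another gene for 25 members, and none did for 7, which include Hist1h1b, Hist1h1a and Hist1h4d. Hist1h2ap shared 92.2% of its stretches with 17 other genes, Hist1h2an 83.3% and Hist2h2aa1 88.3%, so the counts of these H2A genes are uncertain. Hist2h2aa2, whose stretches all occur in other genes too, Hist1h2bq, Hist1h2br, Hist1h2ba and Hist1h2aa had 0 UMIs in the microglial cells compared below. On the same strand, exons of Hist1h1e and Hist1h2be overlap each other and exons of Hist3h2a overlap Trim17, so their counts are uncertain too. The symbol Hist2h2bb is carried by 2 gene identifiers, which were kept apart.

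The libraries held 13820 to 15306 barcodes and 85442198 to 105574073 UMIs, and 10759 to 13447 cells passed the minimum of 500 genes and the limit of 10% mitochondrial UMIs, with median depths of 5147 to 6059 UMIs. The lowest total of a barcode was 3133 UMIs in the saline library and 500 in both others, and 63 to 71 barcodes (0.423% to 0.514%) were shared between pairs of libraries. Gzmb, the floxed gene, had 61, 127 and 2 UMIs in 4, 6 and 1 cells, too few cells to check the labels firmly. In Mki67+ microglia the summed level of 6 of 6 detected erythroid markers was 89139, 63593 and 22827 counts per 1000000 (CPM), and that of 9 neutrophil markers, 7 of them detected in every library, was 5781, 1622 and 2162 CPM. Both sums differ between the libraries, and their part in the differences between libraries reported below was not tested. With 1 library per group there is no test of treatment or genotype, a library-wide technical difference cannot be told apart from either, and every interval covers counting error only, at 95%.

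Cells were placed by a few genes. Microglia had P2ry12, a purinergic receptor of microglia, and no Mrc1 UMI, macrophages had Mrc1 and Pf4, and monocytes had Ccr2 and Ly6c2. Microglia were divided into 1442, 729 and 1066 cells with Mki67, a gene of cycling cells, 509, 421 and 619 cells without Mki67 but with Dtl or Uhrf1, 2 genes transcribed around S phase (the Dtl/Uhrf1 gate), and 3305, 3273 and 3616 other cells. All 10 microglia markers were detected in each of these 3 gates in every library. The Dtl/Uhrf1 gate carried S phase genes, with a summed level of 2038, 1884 and 2151 CPM for 30 listed genes that do not include Dtl and Uhrf1, against 482, 492 and 518 CPM in other microglia. All of the 27, 27 and 28 listed genes tested were at least 2-fold higher there. Its sum of 19 genes of G2 and mitosis was low at 329, 239 and 306 CPM, against 3493, 4149 and 3956 CPM in Mki67+ microglia. A cell with no UMI of a gate gene may still carry its RNA below detection.

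Members were far higher in Mki67+ microglia than in other microglia in every library. Their summed level was 3379, 4057 and 2725 CPM against 492, 638 and 473 CPM, a ratio of 6.87 (6.71 to 7.04), 6.36 (6.22 to 6.51) and 5.76 (5.63 to 5.90). Past the filter for low counts were 27, 26 and 23 of the 69 members, and 23, 22 and 18 of these were at least 2-fold higher, while 0 were 2-fold lower. Over all genes tested 5.57%, 6.44% and 5.8% were 2-fold higher and 0.405%, 0.494% and 0.395% lower. A member that passed the filter only through its level in Mki67+ cells had to be higher there, so these counts are a description. Of the 50 members with at least 20 UMIs in each library over both gates, with no filter on level, 21 were at least 10-fold higher in every library, 28 at least 5-fold and 43 at least 2-fold. A member could reach 20 UMIs through Mki67+ cells alone, as Hist1h2bh did with 5, 1 and 6 UMIs in other microglia. The share of all genes by this rule is not given, so these counts too are a description. Only Hist4h4, Hist3h2ba, Hist3h2a and Hist1h2bc of these 50 stayed under 2-fold in all 3 libraries, and Hist2h3c2, Hist2h3c1 and Hist1h1c lay on both sides of that fold.

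**Figure D1:**
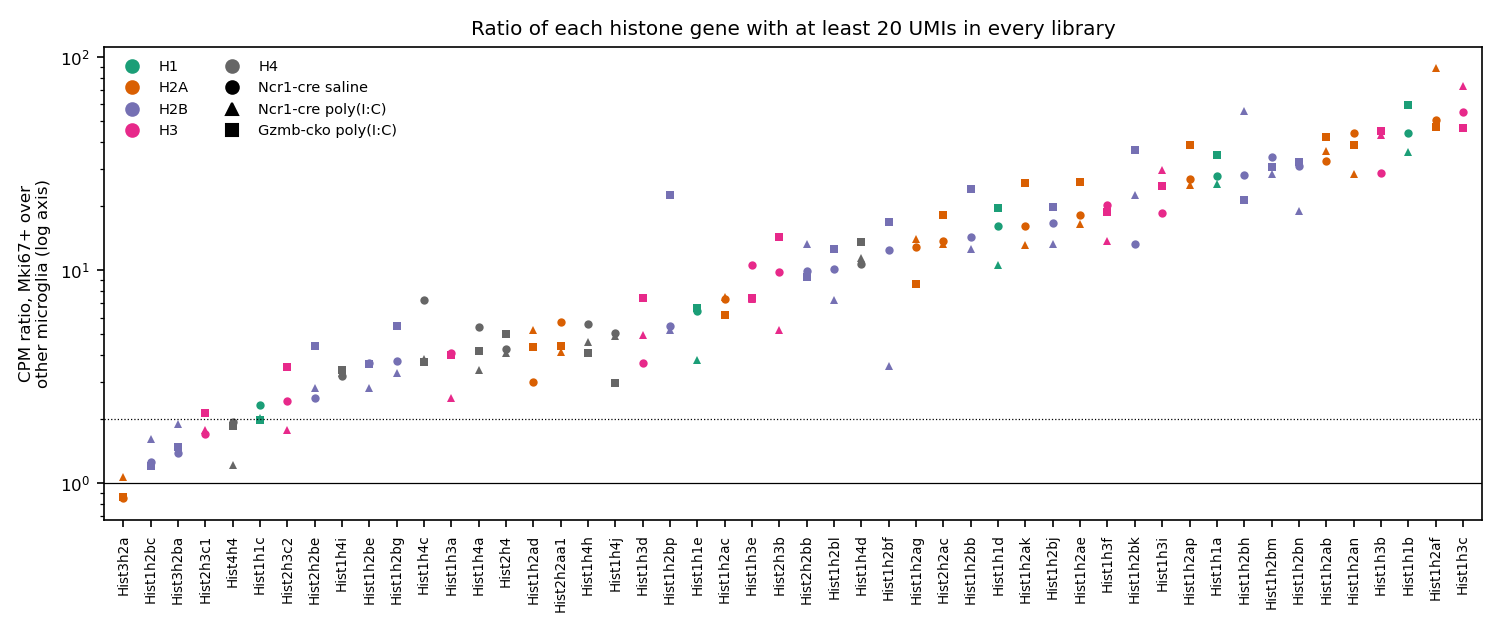
Ratio of CPM in Mki67+ microglia over other microglia (log axis) for each member with at least 20 UMIs in every library, coloured by class, with 1 symbol shape per library and members in the order of their median ratio. The dotted line is 2-fold, Hist3h2a lies at 0.849 to 1.07 on the left, and Hist1h2af (47.0 to 88.5) and Hist1h3c (46.4 to 73.2) lie among the highest on the right. Hist1h2af had only 5, 4 and 6 UMIs in other microglia.

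The classes differed in this ratio. H2A was 12.3 (11.7 to 13), 10.0 (9.47 to 10.6) and 10.1 (9.57 to 10.7) times as high in Mki67+ as in other microglia, and H3 was 10.9, 9.29 and 9.09 times as high. H1 was 8.20, 7.73 and 7.99 times as high and H4 5.36, 4.16 and 4.07 times. H2B stood lowest, with ratios of 2.44 (2.33 to 2.56), 2.45 (2.33 to 2.59) and 2.20 (2.10 to 2.30). Its intervals did not overlap those of any other class.

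**Figure D2:**
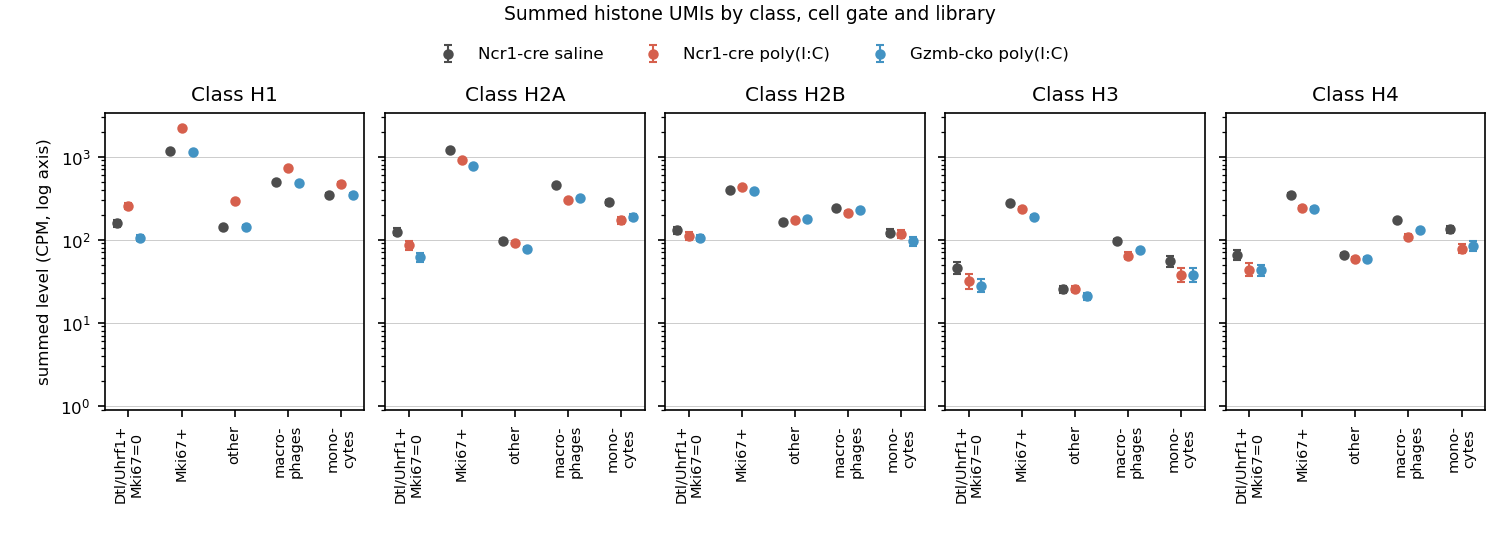
Summed level of each class in CPM (log axis) in the 5 cell gates, with 1 colour per library and bars for exact Poisson 95% intervals. All classes are highest in Mki67+ microglia, and in that gate class H1 reaches 2236 CPM with poly(I:C) in Ncr1-cre, against 1159 and 1142 CPM in the others.

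The Dtl/Uhrf1 gate, although rich in S phase genes, had histone sums close to those of other microglia. All members summed to 522, 525 and 342 CPM there, a ratio to other microglia of 1.06 (1.01 to 1.12), 0.823 (0.780 to 0.869) and 0.722 (0.685 to 0.762). Of the 15, 12 and 9 members past the filter, 2, 0 and 1 were at least 2-fold higher and 1, 0 and 0 lower, where 2.62%, 1.9% and 2.13% of all genes tested were higher and 0.211%, 0.504% and 0.598% lower. Class H3 was above other microglia, with ratios of 1.82 (1.49 to 2.20), 1.24 (0.982 to 1.56) and 1.34 (1.09 to 1.63), though in the poly(I:C) library the interval included 1. Class H2B was below, at 0.792, 0.636 and 0.60, with each interval under 1. Hist1h1b, a linker histone, was 33.8, 64.0 and 19.4 CPM in this gate and 12, 38.1 and 9.68 CPM in other microglia (ratios 2.81, 1.68 and 2.00). Hist1h3a stood at 12.9, 9.54 and 11.8 CPM against 5.98, 6.74 and 4.86 CPM. The direction for all members depended on the scaling of the saline library and on depth: with trimmed-mean scaling the saline ratio was 0.973, and in cells thinned to 3000 UMIs the ratios were 1.27, 1.11 and 0.877.

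Within Mki67+ microglia, the cells with Dtl or Uhrf1 (471, 293 and 464) and the cells without them but with the mitotic genes Ccnb1, Cdc20 or Plk1 (612, 254 and 412) both held much histone RNA. All members summed to 3459, 4556 and 2691 CPM in the first and 4255, 5209 and 3301 CPM in the second, and to 1698, 1166 and 1248 CPM in Mki67+ cells with neither mark. The linker gene Hist1h1b was 641, 1780 and 653 CPM in the first and 608, 1528 and 638 CPM in the second. The H2B gene Hist1h2bc was 78.6, 91.3 and 87.2 CPM with the S phase marks and 199, 335 and 233 CPM with the mitotic marks, a ratio of 2.53, 3.67 and 2.67. Hist1h1c was 1.68, 2.17 and 1.77 times as high and Hist3h2a 1.81, 2.51 and 2.00 times as high with the mitotic marks. These 3 members are also among those least raised in Mki67+ over other microglia.

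The linker histones are taken first. Hist1h1b, which encodes H1.5, was the member with most UMIs over all kept cells (60385 of 331521). It lies on chromosome 13 at 21779883 to 21780625, minus strand, and shares no 100-base stretch with another gene. Its level was 532, 1373 and 580 CPM in Mki67+ microglia and 12, 38.1 and 9.68 CPM in other microglia, a ratio of 44.2, 36.0 and 59.9. Hist1h1a (H1.1) stood at 40.7, 65.7 and 44.5 CPM against 1.47, 2.58 and 1.27 CPM, and Hist1h1d (H1.3) at 116, 101 and 87.7 CPM against 7.23, 9.55 and 4.49 CPM. Hist1h1e (H1.4) was 296, 454 and 250 CPM against 45.9, 119 and 37.4 CPM. Hist1h1c, which encodes H1.2, differed least, at 173, 242 and 179 CPM against 74.7, 120 and 90.1 CPM (ratios 2.32, 2.02 and 1.99), and was the H1 member with the highest level in other microglia, though in the poly(I:C) library Hist1h1e nearly equalled it. Hist1h1t, the testis H1, had under 100 UMIs in all.

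The 250 bases before the start of 3 H1 genes are shown, since these genes differ in how they stand between libraries. Sequences are from RefSeq on build GRCm38.p6, as chr13:21780626-21780875 (minus strand), chr13:23622559-23622808 (minus strand) and chr13:23554782-23555031 (plus strand). Capitals mark 5 motifs of histone promoters on either strand: the CCAAT box, the TATA box searched as TATAAA, the octamer element ATTTGCAT, the H1 box AAACACA and the H4 element GGTCCG.
Hist1h1b: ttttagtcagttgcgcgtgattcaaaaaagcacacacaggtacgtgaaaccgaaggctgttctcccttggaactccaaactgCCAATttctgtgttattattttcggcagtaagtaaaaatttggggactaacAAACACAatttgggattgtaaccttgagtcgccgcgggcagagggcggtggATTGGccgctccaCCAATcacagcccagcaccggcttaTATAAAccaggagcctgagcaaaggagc
Hist1h1e: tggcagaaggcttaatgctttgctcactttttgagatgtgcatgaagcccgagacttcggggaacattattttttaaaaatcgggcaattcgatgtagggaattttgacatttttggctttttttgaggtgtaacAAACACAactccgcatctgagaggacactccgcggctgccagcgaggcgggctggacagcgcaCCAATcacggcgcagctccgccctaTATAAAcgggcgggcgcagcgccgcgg
Hist1h1d: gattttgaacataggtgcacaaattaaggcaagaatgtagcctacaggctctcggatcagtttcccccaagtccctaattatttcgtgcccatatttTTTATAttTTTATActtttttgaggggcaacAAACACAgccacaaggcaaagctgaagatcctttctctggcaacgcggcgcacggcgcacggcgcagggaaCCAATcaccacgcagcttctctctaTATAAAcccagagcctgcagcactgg
All 3 hold AAACACA, and nearer to the start a CCAAT followed by TATAAA; Hist1h1b has more CCAAT matches and Hist1h1d 2 copies of TTTATA, the reverse of TATAAA, farther upstream. AAACACA was found in 5 of the 6 H1 promoters and in 9 of the 60 member promoters that could be matched (15%), against 6.22% of 27025 promoters of all genes. CCAAT was present in 81.7% of member promoters, in all 6 of H1, 17 of H2A and 15 of H2B but 3 of 12 of H4, against 34.5% of all. TATAAA was present in 48.3% of member promoters against 13%. A match is a description of letters and marks no known site.

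In class H2A the copies dominate. Hist1h2ap was 524, 204 and 298 CPM in Mki67+ microglia and 19.5, 8.09 and 7.65 CPM in other microglia, and Hist1h2ae was 340, 341 and 227 CPM against 18.6, 20.7 and 8.78 CPM. Hist2h2ac, from the smaller cluster on chromosome 3, was 124, 111 and 79.4 CPM against 9.09, 8.38 and 4.39 CPM. Hist3h2a, from chromosome 11, was the exception: it was 31.7, 45.0 and 40.2 CPM in Mki67+ microglia and 37.3, 42.0 and 46.5 CPM in other microglia, with ratios of 0.849 (0.740 to 0.971), 1.07 (0.927 to 1.23) and 0.864 (0.765 to 0.973). The poly(I:C) interval included 1, and in thinned cells the Gzmb-cko ratio was 1.05. Its transcript has 1700 bases after the stop codon, with both the stem-loop and AATAAA.

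Among H2B genes Hist1h2bc carried the class outside the cycle. It was 116, 121 and 137 CPM in other microglia, 71.5%, 69.8% and 78.2% of all H2B UMIs there, and 147, 194 and 165 CPM in Mki67+ microglia, a ratio of 1.26 (1.18 to 1.35), 1.61 (1.49 to 1.73) and 1.21. In the Dtl/Uhrf1 gate it was lower than in either, at 75.3, 64.0 and 75.9 CPM. Hist1h2bj behaved unlike it, at 50.02, 37.2 and 33.7 CPM in Mki67+ and 2.99, 2.81 and 1.70 CPM in other microglia. Hist1h2bn (22.7, 22.2 and 21.3 CPM against 0.734, 1.17 and 0.661 CPM) was also largely restricted to the Mki67+ gate. Hist1h2be lay between, at 44.7, 48.7 and 51.5 CPM against 12.1, 17.4 and 14.2 CPM. Hist3h2ba was 24.9, 37.2 and 19.0 CPM against 17.9, 19.5 and 12.8 CPM.

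In class H3, Hist1h3c was 65.6, 85.8 and 43.8 CPM in Mki67+ microglia and 1.19, 1.17 and 0.944 CPM in other microglia (55.3, 73.2 and 46.4-fold). Hist1h3e was 92.7, 65.5 and 55.4 CPM against 8.75, 8.96 and 7.51 CPM. Hist1h3a was 24.4, 17.0 and 19.4 CPM against 5.98, 6.74 and 4.86 CPM. All of these H3 genes encode the replication-dependent H3 proteins, and their values are uncertain where coding sequences are shared.

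In class H4, whose genes all encode 1 protein, Hist1h4d was 165, 88.6 and 70.6 CPM in Mki67+ and 15.5, 7.79 and 5.19 CPM in other microglia. Hist1h4i was 75.4, 80.03 and 83.4 CPM against 23.5, 24.3 and 24.6 CPM, a ratio of 3.2, 3.29 and 3.38 that hardly differed between libraries. Hist4h4, alone on chromosome 6, was 21.4, 15.3 and 30.0 CPM against 11.1, 12.5 and 16.1 CPM. The promoters of Hist1h4d (chr13:23581318-23581567, plus strand) and Hist4h4 (chr6:136804432-136804681, minus strand), RefSeq on GRCm38.p6, are set side by side because the genes encode the same protein and differ in ratio, 10.6, 11.4 and 13.6 against 1.93, 1.22 and 1.87. Capitals mark the same 5 motifs.
Hist1h4d: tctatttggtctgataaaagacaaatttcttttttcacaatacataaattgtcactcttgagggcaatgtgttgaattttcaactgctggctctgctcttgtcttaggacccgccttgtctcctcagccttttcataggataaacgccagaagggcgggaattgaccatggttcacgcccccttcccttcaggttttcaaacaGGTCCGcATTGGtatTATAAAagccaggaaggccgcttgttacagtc
Hist4h4: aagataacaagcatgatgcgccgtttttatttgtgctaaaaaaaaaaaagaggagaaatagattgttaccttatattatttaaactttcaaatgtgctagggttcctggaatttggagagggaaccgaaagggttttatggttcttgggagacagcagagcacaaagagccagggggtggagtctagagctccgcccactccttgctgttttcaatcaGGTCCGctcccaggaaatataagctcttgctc
Both hold GGTCCG, which was found in 9 of 12 H4 promoters and 18.3% of member promoters against 6.82% of all. Hist1h4d also holds ATTGG, the reverse of CCAAT, and TATAAA, which Hist4h4 lacks in this window.

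**Figure D3:**
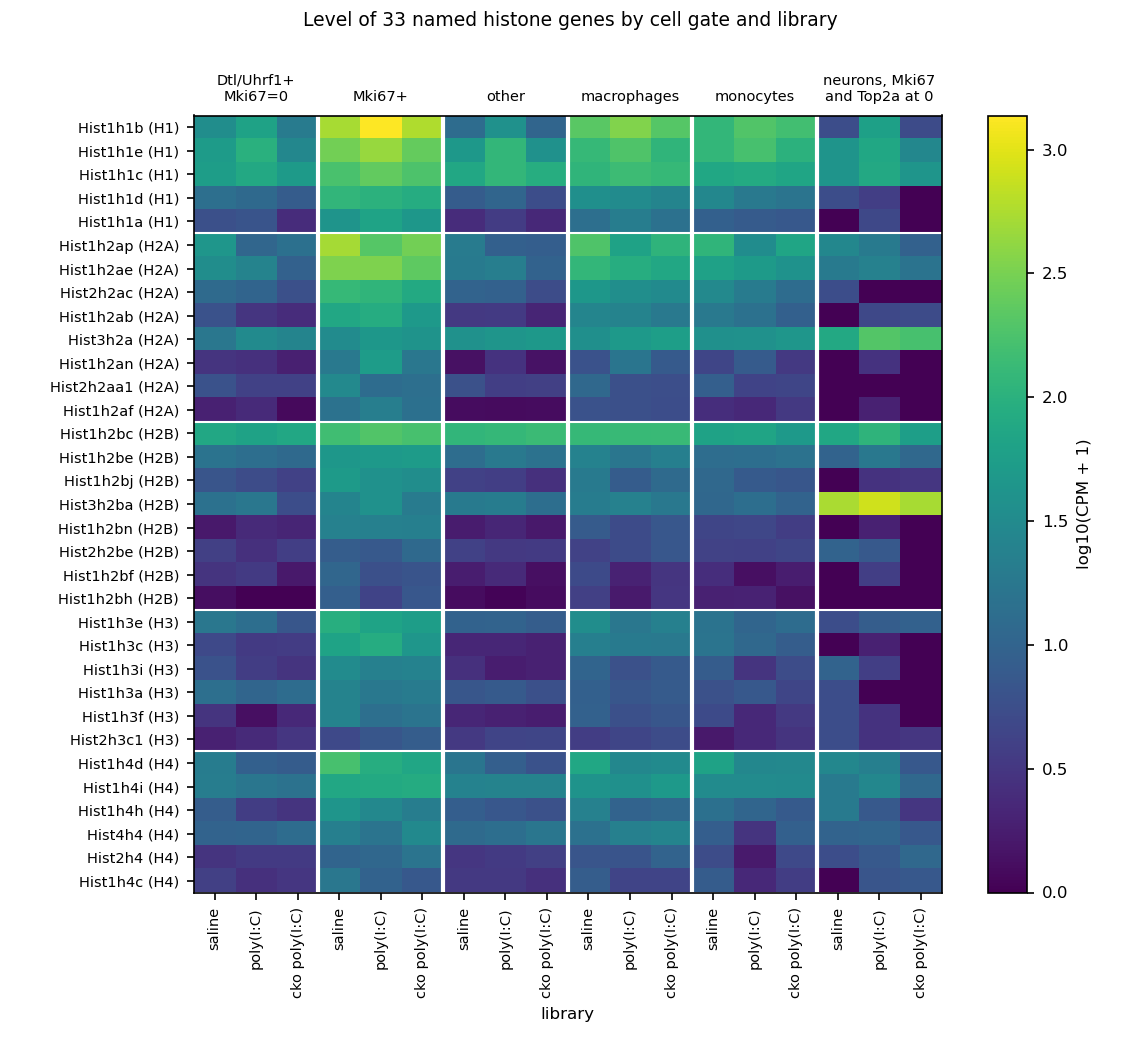
Level of 33 named members (rows, by class) in each gate and library, as log10 of CPM plus 1. The columns of Mki67+ microglia are brightest for nearly all rows, and Hist3h2ba is brightest in neurons.

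Gene models of the members with high and low ratios differed. Of the 50 members above, 48 had models. The 19 at least 10-fold higher in Mki67+ cells in every library had a median transcript length of 508 bases, and 2 of them had AATAAA after the stop codon. The 22 whose lowest ratio was between 2-fold and 10-fold had a median of 619.5 bases, and 7 had AATAAA. The 7 with a lowest ratio under 2-fold had a median of 1560 bases, and 6 had AATAAA. Lengths, and the chance to find AATAAA, depend on how far a model was annotated past the stop codon. Models of Hist1h1b, Hist1h2an, Hist1h2bn, Hist1h2ak and Hist1h3i, all among the 19, ended at the stop codon, so AATAAA could not be looked for there. The low-ratio models all ran past it, the least in Hist3h2ba with 213 bases.

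Many H2A and H2B genes start back to back, and 12 such pairs of opposite strands had start sites 176 to 306 bases apart. Partners were often unequal. Hist1h2ac and Hist1h2bc, 251 bases apart, were 11.5, 9.22 and 7.89 CPM and 147, 194 and 165 CPM in Mki67+ microglia. Hist1h2ae and Hist1h2bg, 176 bases apart, were 340, 341 and 227 CPM and 11.6, 10.4 and 10.9 CPM. Hist1h2ap stood at 524, 204 and 298 CPM while its partner Hist1h2br, 236 bases away, had 0 UMIs. The 250 bases before Hist1h2ae (chr13:23571221-23571470, minus strand, RefSeq, GRCm38.p6) cover the whole space to Hist1h2bg and are shown with the same motifs in capitals.
Hist1h2ae: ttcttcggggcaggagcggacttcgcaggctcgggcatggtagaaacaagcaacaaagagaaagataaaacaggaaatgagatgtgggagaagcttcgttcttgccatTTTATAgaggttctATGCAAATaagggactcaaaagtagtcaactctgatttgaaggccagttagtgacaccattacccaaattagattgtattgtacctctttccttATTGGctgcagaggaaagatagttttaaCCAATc
ATGCAAAT, the reverse of ATTTGCAT, was found in this window. ATTTGCAT on either strand was found in 7 of 17 H2A and 5 of 15 H2B promoters and in none of the other classes, 20% of member promoters against 1.61% of all.

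Macrophages and monocytes, which are separate myeloid lineages from microglia, gave the same order of classes in their Mki67+ cells with 1 change. In macrophages, Mki67+ over Mki67-negative cells, the ratio was 6.94, 6.15 and 5.84 for H1, 11.4, 7.76 and 6.57 for H2A, 12.3, 8.17 and 8.78 for H3, 4.64, 2.65 and 3.11 for H4 and 2.09, 2.20 and 1.95 for H2B. H3 was thus ahead of H2A by value there. No intervals are given for these ratios or the monocyte ratios that follow, so close classes are not ranked firmly. In monocytes it was 6.63, 5.47 and 9.87 for H1, 9.80, 6.48 and 9.95 for H2A, 10.7, 7.34 and 16.1 for H3, 4.93, 2.92 and 5.01 for H4 and 3.46, 2.32 and 4.37 for H2B. H2B was the lowest class in each of these 6 comparisons. Over all cells of the gate, members summed to 1451, 1410 and 1230 CPM in macrophages and 940, 867 and 747 CPM in monocytes, levels that include the share of Mki67+ cells. Hist1h2bc was 120, 114 and 120 CPM in Mki67-negative macrophages, close to other microglia, and 52.3, 61.8 and 36.4 CPM in Mki67-negative monocytes.

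Single cells were uneven. A Mki67+ microglial cell had a median of 17, 14 and 14 member UMIs, with the 10th to 90th percentiles at 2 to 54, 2 to 88 and 2 to 57 and a maximum of 211, 305 and 148. Other microglia had a median of 2 in each library. At their own depth (medians of 5851.5, 7231 and 7663.5 UMIs in Mki67+ and 4370, 4680 and 5258 UMIs in other microglia) 96.7%, 96.8% and 97.1% of Mki67+ and 82.1%, 82.4% and 80.1% of other microglia had a member UMI. Thinned to 3000 UMIs, with 0, 2258 and 1662 shallower cells left out and the gates drawn again, the shares were 93.4%, 95.4% and 92.9% and 70.3%, 76.6% and 64.8%.

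Hist1h1b was found in 58.3%, 67.3% and 58.3% of thinned Mki67+ microglia (59.8%, 62.7% and 58.9% unthinned) and in 4.02%, 6.71% and 3.2% of thinned other microglia (4.33%, 10.3% and 4.12% unthinned). The reference was neurons, that is cells with Stmn2 and Tubb3 and without P2ry12, Ptprc, Mki67 and Top2a. Their median depths were 4020, 4115 and 3686 UMIs. They were not free of cell cycle RNA. Their sum of the listed S phase genes was 920, 814 and 709 CPM, against 482, 492 and 518 CPM in other microglia. Their sum of genes of G2 and mitosis was 164, 186 and 173 CPM, against 202, 189 and 190 CPM. In these neurons the thinned share with Hist1h1b was 1.72% (0.0436 to 9.24), 10.4% (6.55 to 15.5) and 1.19% (0.0301 to 6.46). How much of it came from cycling cells was not tested. In the poly(I:C) library the share in other microglia, 6.71%, lay within the interval of the neurons. The Hist1h1b level there was below that of the neurons, at 38.1 against 60.3 CPM. Hist1h1b in other microglia of that library was thus not above the neurons, and if it was background was not tested. In the saline and Gzmb-cko libraries the neuron share rested on 1 cell each, and the neuron levels of 4.55 and 4.22 CPM on 1 and 2 UMIs, too few to set beside the 12 and 9.68 CPM of other microglia. The 64.0 CPM in the Dtl/Uhrf1 gate with poly(I:C) lay within the interval of the neurons (46.4 to 76.9 CPM). Nothing is read from the differences of Hist1h1b between libraries in these gates. For Hist1h2bc the thinned share was 23.9%, 25.5% and 23.9% in other microglia, 10.3%, 14.1% and 8.70% in monocytes and 22.4%, 21.3% and 8.33% in these neurons. It was unequal between cell types within a library.

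Hist3h2ba was the member that set neurons apart. It was 542, 825 and 528 CPM in those neurons (119, 876 and 250 UMIs in 49, 245 and 113 cells) and 17.9, 19.5 and 12.8 CPM in other microglia. The thinned share of cells with a UMI was 69.0%, 86.1% and 75.0% in neurons and 4.36%, 4.42% and 2.83% in other microglia. Hist3h2a, its neighbour on chromosome 11, was 77.4, 198 and 167 CPM in neurons. The demand that Mki67 and Top2a be 0 was added after the data were seen, because the wider neuron gate held dividing cells.

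Other genes of histone supply were tallied from lists. Of the genes listed as replication-independent histones, 5 of 9, 6 of 10 and 5 of 9 tested were at least 2-fold higher in Mki67+ than in other microglia, where 5.57%, 6.44% and 5.8% of all genes tested were. Cenpa, at 16.8, 16.8 and 14.6-fold, and H2afx, at 10.45, 10.2 and 9.99-fold, had the highest ratios of the list. H2afz, the H2A.Z gene, was 1874, 1950 and 2344 CPM against 542, 522 and 639 CPM, while H3f3a, an H3.3 gene, was 1157, 1271 and 1288 CPM against 1053, 1098 and 1169 CPM. Of the genes that process histone mRNA 4, 6 and 4 of 18 were higher, and of the histone chaperones 8, 7 and 7 of 15, set against the same shares of all genes. None of these lists had a gene 2-fold lower. Slbp was 124, 124 and 147 CPM in the Dtl/Uhrf1 gate, 113, 111 and 129 CPM in Mki67+ and 51.8, 51.6 and 54.4 CPM in other microglia. In the Dtl/Uhrf1 gate 7 of 18, 2 of 16 and 5 of 18 processing genes and 6 of 15 chaperones in each library were 2-fold higher, and 0 of 9 replication-independent histone genes were, where 2.62%, 1.9% and 2.13% of all genes tested were.

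The comparison of poly(I:C) with saline within Ncr1-cre, and that of Gzmb-cko with Ncr1-cre under poly(I:C), share the same poly(I:C) library of Ncr1-cre, so their values are set side by side and nothing is read from their opposite signs. In Mki67+ microglia class H1 was higher with poly(I:C) than with saline while H2A, H3 and H4 were lower. The poly(I:C) over saline ratio was 1.93 (1.88 to 1.98) for H1, 0.763 (0.739 to 0.787) for H2A, 1.07 (1.02 to 1.12) for H2B, 0.869 (0.814 to 0.926) for H3 and 0.699 (0.657 to 0.743) for H4. The Gzmb-cko over poly(I:C) ratio was 0.511 (0.498 to 0.524) for H1, 0.844 for H2A, 0.906 for H2B, 0.80 for H3 and 0.969 (0.907 to 1.04) for H4. Past the filter were 36 members in the first comparison, of which 4 were at least 1.5-fold higher and 6 lower, where 6.46% and 1.56% of all genes tested were. In the second, 35 passed, 1 was higher and 7 lower, where 0.606% and 3.3% of all genes were. The median gene stood 0.17 higher (log2) with poly(I:C) than with saline, and with trimmed-mean scaling the counts became 2 higher and 14 lower in the first and 3 higher and 6 lower in the second. Over all genes that scaling moved the counts from 518 higher and 125 lower to 149 and 260 in the first comparison, and from 49 and 267 to 103 and 167 in the second, so neither set of member counts is read as particular to histone genes.

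Hist1h1b had most of the H1 difference. It was 532, 1373 and 580 CPM in Mki67+ microglia, 2.58 (2.49 to 2.67) times as high with poly(I:C) as with saline, and 0.423 (0.408 to 0.437) times as high in Gzmb-cko as in poly(I:C). Hist1h1e was 1.53 (1.45 to 1.61) and 0.551 times as high and Hist1h1a 1.61 (1.40 to 1.85) and 0.678 times, while Hist1h1d was 0.873 (0.79 to 0.963) and 0.865 times as high. Without Hist1h1b the H1 ratios were 1.38 (1.33 to 1.43) and 0.651. In Mki67+ microglia the saline and Gzmb-cko libraries were close for Hist1h1b, and the poly(I:C) library stood alone above them. In Mki67+ macrophages Gzmb-cko over saline was 0.922 (0.873 to 0.975), but in Mki67+ monocytes it was 1.64 (1.41 to 1.91).

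Hist1h2ap had the opposite pattern, at 524, 204 and 298 CPM, with ratios of 0.388 (0.365 to 0.413) and 1.46 (1.37 to 1.57). Hist1h2an, one of the genes it shares stretches with, was 17.5, 53.2 and 16.5 CPM, with ratios of 3.05 (2.53 to 3.68) and 0.311. H2A without Hist1h2ap was 1.05 (1.01 to 1.09) times as high with poly(I:C) as with saline, so the lower H2A sum rested on Hist1h2ap. Hist2h2aa1, another gene with copies, was 28.7, 11.9 and 13.1 CPM. Hist1h2ae was level between the first pair at 1.002 (0.949 to 1.06) and 0.668 (0.629 to 0.710) in the second.

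Hist1h4d, which shares no stretch with another gene, was 165, 88.6 and 70.6 CPM, 0.538 (0.487 to 0.593) times as high with poly(I:C) and 0.797 (0.711 to 0.895) times in Gzmb-cko over poly(I:C). Both poly(I:C) libraries were thus below the saline library. Hist1h4h, at 42.4, 28.2 and 20.2 CPM, and Hist1h4c, at 16.8, 8.73 and 6.29 CPM, had the same order, whereas Hist1h4i did not differ beyond counting error, with ratios of 1.06 (0.946 to 1.19) and 1.04 (0.930 to 1.17). In H3, Hist1h3f was 24.0, 12.8 and 15.1 CPM (0.536 and 1.18) and Hist1h3c 65.6, 85.8 and 43.8 CPM (1.31 and 0.510). In H2B, Hist1h2bc was 1.32 (1.22 to 1.43) and 0.852, and Hist3h2ba 1.497 (1.25 to 1.80) and 0.510. Hist4h4 was 0.715 and 1.96 (1.55 to 2.51) in Mki67+ microglia. In Mki67+ macrophages it was 1.43 (0.926 to 2.18) and 1.39 (0.987 to 2.00), where both intervals included 1. Over all macrophages, most of them without Mki67, it was 1.60 and 1.12.

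**Figure D4:**
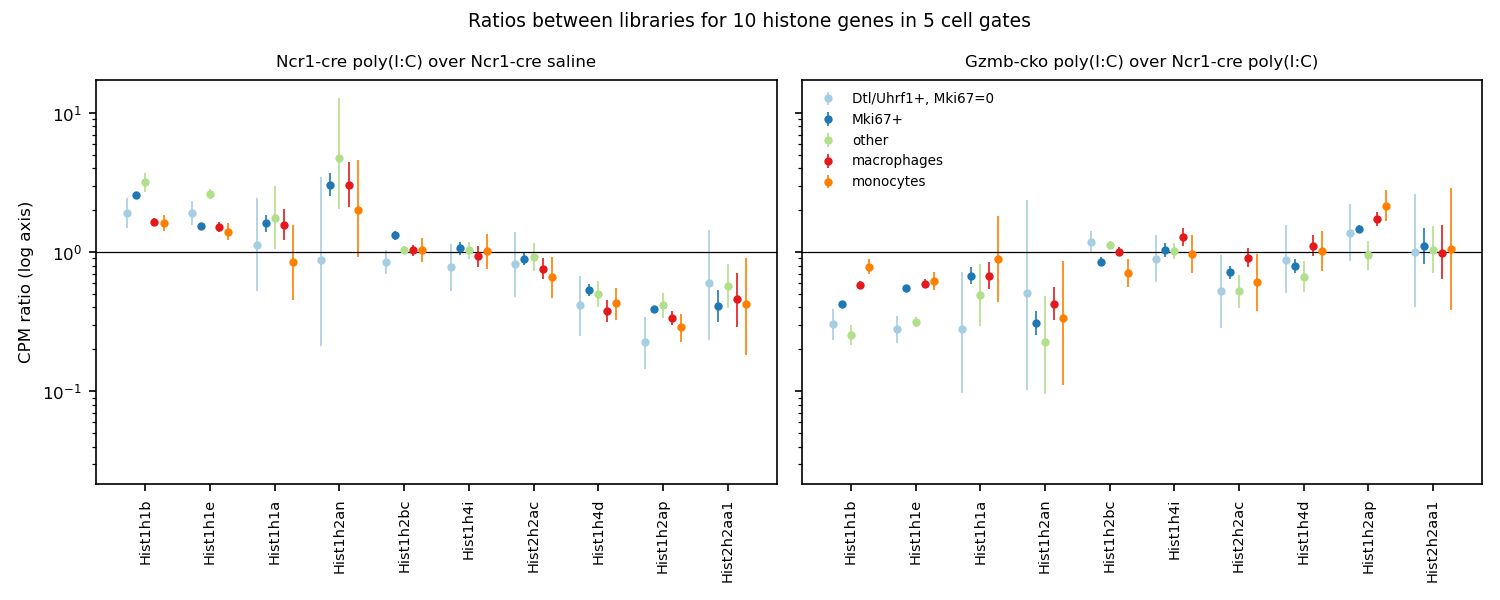
CPM ratios (log axis) of 10 members in 5 gates, poly(I:C) over saline on the left and Gzmb-cko over poly(I:C) on the right, with 95% counting intervals. On the left Hist1h1b lies at 1.61 to 2.58 in Mki67+ microglia, macrophages and monocytes. Its level with poly(I:C) in both other gates lay within or below the interval of the neurons. Hist1h2ap lies below 1 in all 5 (the highest at 0.415). Its level was below that of the neurons in other microglia of every library. In the Dtl/Uhrf1 gate it was so with poly(I:C), at 9.88 against 18.8 CPM, so nothing is read from its ratios in these gates.

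Hist1h1b, Hist1h2ap and Hist1h4d were compared next in macrophages and monocytes, over all cells of each gate and then apart by Mki67, since a whole gate mixes in its share of Mki67+ cells. Hist1h1b was 214, 351 and 205 CPM in macrophages and 120, 193 and 152 CPM in monocytes, with poly(I:C) over saline ratios of 1.64 (1.54 to 1.75) and 1.61 (1.41 to 1.84). Hist1h2ap was 187, 63.1 and 109 CPM and 112, 32.3 and 69.4 CPM, with ratios of 0.336 (0.30 to 0.377) and 0.288 (0.227 to 0.361). Hist1h4d was 72.7, 27.4 and 30.5 CPM and 63.7, 27.3 and 27.8 CPM. Within Mki67+ cells Hist1h1b was 2.12 (1.99 to 2.26) times as high with poly(I:C) as with saline in macrophages and 1.91 (1.66 to 2.20) times in monocytes, and within Mki67-negative cells 3.69 (2.77 to 4.97) and 2.44 (1.68 to 3.62) times. In the Mki67-negative cells its poly(I:C) levels of 44.9 and 40.5 CPM were below the 60.3 CPM of neurons, so nothing is read from those ratios. Hist1h2ap was 0.427 (0.378 to 0.481) and 0.320 (0.244 to 0.414) within Mki67+ cells and 0.667 (0.455 to 0.965) and 0.504 (0.295 to 0.841) within Mki67-negative cells. Hist1h4d was 0.428 (0.349 to 0.522) and 0.368 (0.249 to 0.533) within Mki67+ cells. Within Mki67-negative cells it was 0.810 (0.535 to 1.21) in macrophages, where the interval included 1, and 0.673 (0.450 to 0.998) in monocytes. In macrophages and monocytes each ratio of Hist1h2ap and Hist1h4d was thus nearer to 1 in Mki67-negative cells. Their levels there with saline and poly(I:C) were not clearly above those of neurons, so nothing is read from this. The difference between the 2 kinds of cell was not tested. In microglia the ratio of Hist1h4d was 0.538 in Mki67+ and 0.504 (0.406 to 0.622) in other cells, and that of Hist1h2ap 0.388 and 0.415. Neurons without Mki67 and Top2a had Hist1h2ap at 27.3, 18.8 and 8.44 CPM and Hist1h4d at 27.3, 21.7 and 6.33 CPM. Both genes were lower in other microglia of every library, so nothing is read from their ratios there. Over whole gates, in macrophages 5 of 21 members past the filter were at least 1.5-fold higher with poly(I:C) and 5 lower, and in monocytes 1 and 5 of 17, where 8.89% and 1.88% of all genes tested were higher and lower in macrophages and 12.3% and 4.53% in monocytes. For Gzmb-cko over poly(I:C) the counts were 1 and 3 of 19 (0.805% and 3.27% of all genes) and 1 and 3 of 15 (3.64% and 4.44%). With trimmed-mean scaling the macrophage counts for poly(I:C) over saline were 1 higher and 8 lower, where all genes went from 709 higher and 150 lower to 271 and 336.

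In other microglia, H1 was 141, 289 and 143 CPM, and 129, 251 and 133 CPM without Hist1h1b, with Hist1h1e at 45.9, 119 and 37.4 CPM (ratios 2.60, 2.39 to 2.82, and 0.314) and Hist1h1c at 74.7, 120 and 90.1 CPM (1.60, 1.496 to 1.72, and 0.752). In the neurons without Mki67 and Top2a, Hist1h1e was 41.0, 73.4 and 27.4 CPM from 9, 78 and 13 UMIs. Hist1h1c was 41.0, 78.1 and 42.2 CPM there, from 9, 83 and 20 UMIs. The poly(I:C) values were the highest for both genes, as in other microglia, but the saline values in neurons rested on 9 UMIs each. No interval is given for the neuron ratios, so no difference between libraries is read from them. The part of RNA from outside the cell in neurons or microglia was not tested. In other microglia with 0 UMIs of all 19 genes of G2 and mitosis, a gate added after the data were seen, Hist1h1e was 46.4, 132 and 37.1 CPM. In Mki67-negative macrophages Hist1h1e was 44.0, 112 and 40.0 CPM. The core classes together were 350, 348 and 330 CPM in other microglia, and poly(I:C) over saline was 0.995 (0.960 to 1.03). Of 12 members past the filter there 3 were at least 1.5-fold higher with poly(I:C) and 2 lower (5.17% and 1.46% of all genes tested), and of 10 in the second comparison 0 were higher and 4 lower (0.352% and 2.03%).

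As a share of its own class, which does not depend on the scaling of the library, Hist1h1b made up 45.9% (45.0 to 46.8), 61.4% (60.6 to 62.2) and 50.8% (49.8 to 51.7) of H1 UMIs in Mki67+ microglia. In Mki67+ macrophages the share was 50.1%, 60.1% and 50.02%, and in Mki67+ monocytes 45.6%, 61.6% and 58.0%. Hist1h2ap made up 43.6% (42.7 to 44.5), 22.2% (21.1 to 23.3) and 38.5% (37.4 to 39.6) of H2A UMIs in Mki67+ microglia. Hist1h4d made up 47.4%, 36.5% and 30.0% of H4 UMIs. In Mki67+ microglia and macrophages the poly(I:C) library had the highest Hist1h1b share and the lowest Hist1h2ap share, and the Gzmb-cko library lay nearer to saline for both. A share within a class shows unequal differences among its genes, not which of them differed.

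**Figure D5:**
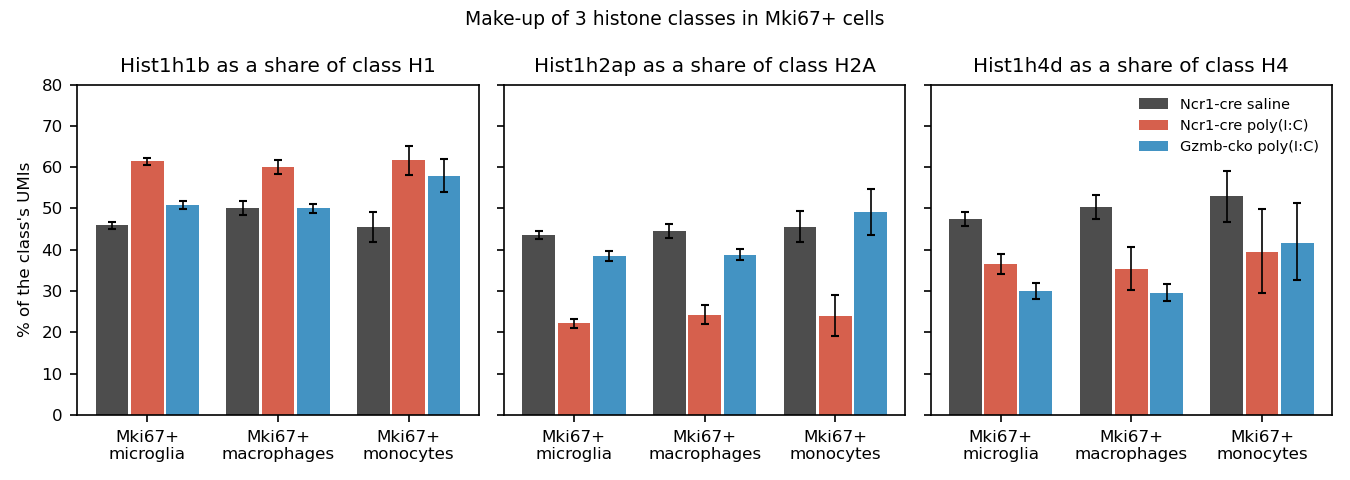
Percent of a class's UMIs that came from Hist1h1b (H1), Hist1h2ap (H2A) and Hist1h4d (H4) in Mki67+ microglia, macrophages and monocytes of each library, with exact binomial 95% intervals. Hist1h2ap is lowest in the poly(I:C) library in all 3 cell types, at 22.2% in microglia.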

How the data were processed

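CD11b+ cells of fetal mouse brain were profiled in 3 libraries, 1 per group. The authors deposited raw UMI counts per gene and barcode, already reduced to called cells by a rule not given in the sources used here. Cell Ranger 5.0.0 is named per the file headers, while Cell Ranger 3.0.1, STAR and build mm10 are named per the submitters' processing notes. Reads that map to several genes are not counted by Cell Ranger.

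The members and lists were chosen with earlier results of these data known. The cell filter was a minimum of 500 genes and a limit of 10% mitochondrial UMIs. Cells that passed as both microglia and monocytes (196, 96 and 98) or as both macrophages and monocytes (32, 5 and 23) were left out. Doublets were kept, and removal of those called by Scrublet (scanpy 1.11.5) was an alternative. UMIs were summed per gate and library and given as CPM of the gate's total, which is not divided by transcript length. Intervals are exact Poisson for levels, conditional binomial for ratios and Clopper-Pearson for shares, at 95%. A member with 0 UMIs was set against a floor of 3 counts. Calls took genes with a mean of at least 10 CPM and at least 20 UMIs over both groups, at 2-fold between gates and 1.5-fold between libraries. Medians over genes are of log2 ratios with a pseudocount of 1 CPM.

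Named were the 5 members per class with the highest mean CPM in Mki67+ microglia, members with at least 100 UMIs and a 1.5-fold difference between 2 libraries in Mki67+ or other microglia, and the 3 highest genes per pathway list. Slbp, the 7 low-ratio members and the pairs of partners were singled out beside this rule after their values were seen. Sequences came from GENCODE M21 (GRCm38, 67 of 69 members matched by identifier) and RefSeq promoters (GRCm38.p6, 60 of 69 matched by symbol or synonym). Python 3.11.15, numpy 2.4.6, scipy 1.17.1, pandas 2.3.3, matplotlib 3.10.9, and R 4.3.3 with edgeR 4.0.16 for trimmed-mean (TMM) scaling were used, and the scripts were tested on simulated data. The alternatives were a stricter cell filter, a UMI floor, doublet removal, 2 UMIs per gate gene, kept overlap cells, totals without mitochondrial, ribosomal and hemoglobin genes, TMM scaling, per-cell means, thinning, no filter on low values, and sums without Hist1h1b or Hist1h2ap.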

Additional observations from a re-analysis of the deposited data

How the results depend on the processing

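Values below are under 1 changed choice each, and the cause of each change was not tested. For all members, Mki67+ over other microglia stayed above 1 under all of them. In the saline library it was 7.18 with the stricter cell filter, 7.67 with 2 UMIs per gate gene, 6.59 without mitochondrial, ribosomal and hemoglobin genes, 6.43 with TMM scaling, 7.45 as a mean of per-cell values and 7.49 in thinned cells. In the poly(I:C) library it was 6.699 with the stricter filter, 6.68 with the UMI floor, 6.58 with doublets removed, 7.72 with 2 UMIs, 5.97 with TMM, 5.62 per cell and 7.49 thinned. In the Gzmb-cko library it was 6.34, 5.94 with the floor, 6.94, 5.61 without those genes, 5.61 with TMM, 5.577 per cell and 6.45 thinned. For the Dtl/Uhrf1 gate over other microglia the saline ratio was 1.005 without those genes, 0.973 with TMM (reversed) and 1.27 thinned. The poly(I:C) ratio was 0.876 with the stricter filter, 0.774 with 2 UMIs, 0.769 with TMM and 1.11 thinned (reversed), and the Gzmb-cko ratio was 0.763, 0.626 and 0.877 thinned.

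Between libraries, in Mki67+ microglia, H1 for poly(I:C) over saline was 2.05 with the stricter filter, 1.99 with doublets removed, 1.80 without those genes, 1.70 with TMM, 1.76 per cell and 1.38 without Hist1h1b. H2A was 0.8005, 0.712 without those genes, 0.672 with TMM, 0.675 per cell and 1.05 without Hist1h2ap (reversed). For Gzmb-cko over poly(I:C), H1 was 0.549 with TMM, 0.496 thinned and 0.651 without Hist1h1b, and H2A was 0.907, 0.807 and 0.667 without Hist1h2ap. With no filter on low values 58, 56 and 58 members were 2-fold higher in Mki67+ microglia. The share of all genes is not given for this or the other counts without the filter, which are a description. Members 1.5-fold higher with poly(I:C) numbered 2 with TMM and 8 without the filter. Those lower numbered 12 without those genes, 14 with TMM, 13 per cell and 20 without the filter. Members higher in Gzmb-cko numbered 2 with 2 UMIs, with overlap cells kept, without those genes and per cell, 3 with TMM and 7 without the filter. Among other results, H2A in macrophages for Gzmb-cko over poly(I:C) was 1.08 and became 0.927 with the stricter filter, Hist3h2a in Gzmb-cko became 1.05 thinned, and Hist1h2bh for Gzmb-cko over poly(I:C) became 0.941 thinned. For the remaining results, each counted once per changed choice, 285 values moved beyond counting error and 1440 did not.

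No paired analysis was possible because each group has 1 library, and for the same reason no replicate was left out. At median depths of 5147 to 6059 UMIs per cell, the 4 members with 0 UMIs and the 7 with 1 to 99 UMIs over all libraries were too few for a comparison. Poly(A) priming, shared sequence and the single library per group limit every statement on members. Sums without Hist1h1b or Hist1h2ap, neurons without Mki67 and Top2a, and other microglia with 0 UMIs of genes of G2 and mitosis were added after the data were seen.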

Other observations

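Proliferating cells made up different shares of the gates. Mki67+ cells were 27.4%, 16.5% and 20.1% of microglia in the saline, poly(I:C) and Gzmb-cko libraries, and 23.6%, 16.9% and 18.2% in cells thinned to 3000 UMIs. The Mki67+ share enters the histone level of macrophages and monocytes taken as whole gates.

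Slbp, whose protein binds the stem-loop, differed far less between the Dtl/Uhrf1 gate and Mki67+ microglia than the histone sums did. No interval is given for Slbp, so its order between these gates is not read. Slbp was 124, 124 and 147 CPM in the Dtl/Uhrf1 gate and 113, 111 and 129 CPM in Mki67+ microglia, while all members summed to 522, 525 and 342 CPM and 3379, 4057 and 2725 CPM there.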
